A study of Homo sapiens with 18 samples.

Results

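The insulin-like growth factor (IGF) axis was followed in 16D prostate cancer cells through 10 genes, taken by symbol from the deposited table: the binding proteins IGFBP2, IGFBP3, IGFBP4, IGFBP5 and IGFBP6, the receptors IGF1R, IGF2R and INSR, and the receptor substrates IRS1 and IRS2. These are 10 of the 60623 genes in the table, and 8 of them passed the filter on low values (3 or more libraries with 1 TPM or more; TPM, the deposited unit, is a length-scaled share of the transcripts of a library). 16D is a castration-resistant prostate cancer line (CRPC), labelled WT for genotype in every group and kept in RPMI with 10% fetal bovine serum. RNA from 18 libraries was sequenced, 3 in each of 6 groups: a DMSO control, and 10 µM enzalutamide, an androgen receptor antagonist, given for 24 h, 48 h, 96 h, 144 h or, in the long-term group, over 2 months. The DMSO group has no stated harvest time, so drug and time in culture cannot be told apart, and 1 set of 3 DMSO libraries served all 5 comparisons with the control. The labels do not say that replicates were separate cultures. Each p-value therefore rests only on the spread between libraries within groups, pooled over all 6 groups and moderated across genes.

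IGF1 and IGF2 are small hormones related to insulin. They signal through IGF1R, a receptor tyrosine kinase that can also pair with the insulin receptor INSR, and the activated receptor passes the signal to the docking proteins IRS1 and IRS2 and from there to PI3K and AKT. The secreted binding proteins hold IGFs outside the cell and can limit or prolong their action, and IGF2R carries IGF2 to the lysosome without kinase activity. In prostate cancer the axis is known as a growth and survival pathway that interacts with androgen signalling.

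The libraries carried luminal prostate markers, and the androgen-driven gene KLK3 was lower under enzalutamide. All 12 luminal markers reached 1 TPM in at least 1 library, as did 1 of 9 fibroblast, 0 of 7 leukocyte, 1 of 6 endothelial and 3 of 9 neuroendocrine markers. KLK3, which encodes prostate-specific antigen, averaged 1021 TPM in DMSO, 34.2 TPM at 144 h and 142 TPM in long-term cells. Within each group the correlation between libraries over all tested genes was 0.983 to 0.990. The mitochondrial share of TPM averaged 19.4% ± 1.49 (SD, n = 3) in DMSO and 26.4% ± 3.91 in long-term libraries, and its part in the long-term results was examined only through fits with that share as a covariate and fits to values rescaled without mitochondrial genes. The deposited values carry no read totals, so depth is unknown and no counting intervals are given.

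IGFBP3, IGFBP5, IGF1R and IGF2R had the widest spans of group means among the tested members, and the 250 bases upstream of their RefSeq starts (build GRCh38.p14) are shown for that reason. All 10 members matched a RefSeq promoter. RefSeq and GENCODE can place a start differently: the bases just after the RefSeq start of IGFBP5 and IGF2R were not found in a GENCODE transcript, and the IGFBP3 window lies inside the GENCODE gene. The sequences run 5′ to 3′ on the gene's strand, and capitals mark any match, on either strand, to TATAAA, to the GC box GGGCGG, to AGAACA (the androgen receptor half-site), to the FOXO core GTAAACA or to the E-box CACGTG; adjoining GC boxes overlap in IGF2R. The windows lie at chr7:45921273-45921522 on the minus strand for IGFBP3, chr2:216695550-216695799 on the minus strand for IGFBP5, chr15:98648289-98648538 on the plus strand for IGF1R and chr6:159968832-159969081 on the plus strand for IGF2R.
IGFBP3: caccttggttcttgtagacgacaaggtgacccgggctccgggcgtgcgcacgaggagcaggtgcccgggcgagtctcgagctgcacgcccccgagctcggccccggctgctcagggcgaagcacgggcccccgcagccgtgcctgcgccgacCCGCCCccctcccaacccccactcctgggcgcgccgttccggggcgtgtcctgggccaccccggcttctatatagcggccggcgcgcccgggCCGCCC
IGFBP5: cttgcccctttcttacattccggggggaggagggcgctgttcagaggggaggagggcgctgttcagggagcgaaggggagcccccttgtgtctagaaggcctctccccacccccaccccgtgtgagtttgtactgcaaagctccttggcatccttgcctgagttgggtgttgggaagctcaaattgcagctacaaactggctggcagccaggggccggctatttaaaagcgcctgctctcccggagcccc
IGF1R: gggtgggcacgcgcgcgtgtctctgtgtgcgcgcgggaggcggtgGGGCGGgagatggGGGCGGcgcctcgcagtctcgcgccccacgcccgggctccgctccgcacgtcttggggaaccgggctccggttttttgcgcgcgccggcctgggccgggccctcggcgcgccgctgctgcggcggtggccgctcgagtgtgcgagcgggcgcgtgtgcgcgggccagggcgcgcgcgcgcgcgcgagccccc
IGF2R: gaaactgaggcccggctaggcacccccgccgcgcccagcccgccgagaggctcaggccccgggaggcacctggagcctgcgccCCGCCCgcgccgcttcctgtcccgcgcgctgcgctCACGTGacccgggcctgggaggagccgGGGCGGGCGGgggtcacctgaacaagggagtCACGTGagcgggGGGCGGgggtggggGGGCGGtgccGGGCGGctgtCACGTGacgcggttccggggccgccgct
The IGFBP3 and IGF1R windows each held 2 GC boxes, and the IGF2R window held 6 GC boxes and 3 E-boxes. None of the 5 motifs was found in the IGFBP5 window. GC content was 76.0% for IGFBP3, 61.2% for IGFBP5, 81.2% for IGF1R and 79.2% for IGF2R, against a median of 58.0% over all 35116 promoters of this length. Over those promoters, 42.6% held the GC box, 10.7% TATAAA, 12.4% AGAACA, 2.98% GTAAACA and 6.34% CACGTG. Among the other members AGAACA was matched in IGFBP2, GTAAACA in IGFBP6 and TATAAA in IGFBP4. A match is a run of letters only and is not evidence of binding.

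IGFBP3, the most abundant IGF carrier of human serum, rose at every step of the treatment. Its gene lies at chr7:45912245-45921874 on the minus strand (ENSG00000146674, GENCODE 29, GRCh38). The 3 DMSO libraries had 12.62, 15.13 and 12.61 TPM, the 24 h libraries 23.08, 23.32 and 23.12 TPM, and the 48 h libraries 46.27, 42.19 and 43.20 TPM. The values were 94.51, 91.33 and 92.76 TPM at 96 h, 189.2, 176.2 and 203.0 TPM at 144 h, and 439.1, 461.0 and 451.7 TPM in long-term cells. No library of any group reached into the range of the group before it. Relative to the DMSO mean, the level was 1.72 times as high at 24 h, 3.26 times at 48 h, 6.90 times at 96 h, 14.1 times at 144 h and 33.5 times in long-term cells. On the log2(TPM + 1) scale, on which all fold changes below are given and which understates changes of low genes, the differences from DMSO were 0.75 ± 0.07 (SE, n = 3 a group, limma adjusted p = 1.45e-06) at 24 h and 4.97 (adjusted p = 4.9e-18) in long-term cells. IGFBP3 ranked 210 from the top of 16169 tested genes by fold change at 24 h, 31 at 48 h, 7 at 96 h, 4 at 144 h and 9 in long-term cells. The steps between neighbouring times were also called (adjusted p below the threshold of 0.05): 0.89 (1.56e-06) from 24 to 48 h, 1.07 (3.32e-07) from 48 to 96 h and 1.02 (3.73e-07) from 96 to 144 h. The long-term cells stood 1.25 (adjusted p = 4.13e-10) above 144 h. IGFBP3 was called in all of these comparisons under every alternative tried, with a long-term difference from DMSO between 4.93 and 5.12. These are bulk libraries, in which a change in the RNA per cell and a change in the share of cells that express a gene cannot be told apart.

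IGFBP5, a binding protein that attaches to extracellular matrix, was near 1 TPM until 144 h and rose in the long-term cells. Its gene lies at chr2:216672105-216695525 on the minus strand (ENSG00000115461), 7668 bp from IGFBP2, which points toward it. The DMSO libraries had 0.61, 0.65 and 0.60 TPM, the 144 h libraries 0.90, 0.86 and 1.01 TPM, and the long-term libraries 38.73, 48.09 and 43.61 TPM. All 15 libraries of the other groups lay at or below 1.64 TPM, far under the lowest long-term library. The long-term mean was 70.1 times the DMSO mean (log2 fold change 4.77 ± 0.12, SE, n = 3 a group, adjusted p = 1.07e-14) and 47.1 times the 144 h mean (4.53, adjusted p = 4.02e-14). At 24 h IGFBP5 had 1.64, 1.06 and 1.02 TPM and was called (0.46, adjusted p = 0.0246), but the call held in 10 of 16 alternatives. It was lost without 24 h replicate 1 (adjusted p = 0.127) and without DMSO replicate 1 (0.0754), 2 (0.058) or 3 (0.0745). All DMSO libraries lay under 1 TPM, so IGFBP5 passed the filter mainly through the 24 h and long-term libraries, where it was highest. Its calls carry that limit, and near 1 TPM a value can rest on a few reads. AC007563.2, annotated on the opposite strand over IGFBP5, had at most 0.27 TPM in any library.

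IGFBP2, the most abundant member in DMSO, changed by a much smaller factor. Its gene lies at chr2:216632828-216664436 on the plus strand (ENSG00000115457). The DMSO libraries had 261.0, 262.4 and 272.6 TPM, the 144 h libraries 311.4, 294.0 and 307.3 TPM, and the long-term libraries 335.1, 348.5 and 330.4 TPM. These 3 groups did not overlap. The rise was 0.20 at 96 h (adjusted p = 0.00547), 0.20 at 144 h (adjusted p = 0.00444) and 0.35 in long-term cells (adjusted p = 2.09e-05). The 96 h call was lost when only the 6 libraries compared were fitted (adjusted p = 0.0663), and the 144 h call was lost under median-of-ratios scaling (0.09, adjusted p = 0.154), while quantile scaling gave 0.30 (adjusted p = 5.08e-06). Long-term cells stood 0.15 above 144 h (adjusted p = 0.0209), a difference called in 13 of 16 alternatives. It was 0.39 under median-of-ratios scaling, 0.28 when rescaled without mitochondrial genes and 0.25 with the mitochondrial share as a covariate, and it was not called without 144 h replicate 2 (adjusted p = 0.0748) or long-term replicate 2 (0.0635).

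IGFBP4 and IGFBP6 did not pass the filter. IGFBP4, a carrier cleaved by the protease PAPPA, had at most 0.33 TPM in any library up to 144 h, and 1.10, 1.27 and 0.98 TPM in the long-term libraries. In a fit with no filter it was higher in long-term cells than in DMSO (0.99 ± 0.08, SE, n = 3 a group, adjusted p = 4.72e-07). IGFBP6, which prefers IGF2, had 0, 0 and 0.17 TPM in DMSO, 0.74, 0.60 and 0.74 TPM at 144 h, and 0.69, 1.06 and 0.43 TPM in long-term cells. The same unfiltered fit gave 0.68 ± 0.13 at 144 h (adjusted p = 0.00168) and 0.70 in long-term cells (adjusted p = 0.00101). At such levels a value can rest on a few reads.

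**Figure D1:**
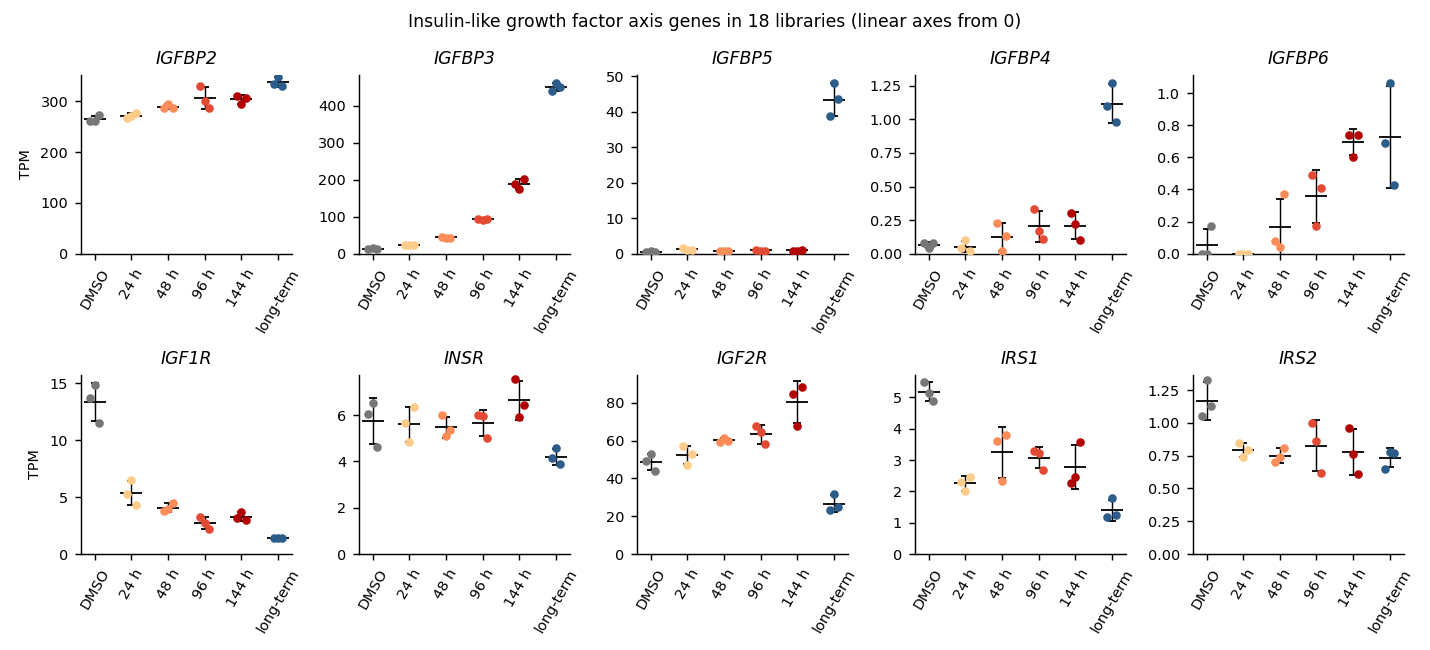
TPM of each of the 10 members in every library, in 1 panel per gene, with groups from DMSO to long-term along the horizontal axis and points for the 3 libraries of a group. IGFBP3 climbs in every group from 12.6 to 15.1 TPM in DMSO to between 439 and 461 TPM in long-term cells, IGFBP5 is high only among the long-term libraries, and IGF1R is highest in DMSO.

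The make-up of the binding protein RNA changed with these differences. TPM is scaled by transcript length, so levels of different genes can be summed. The 5 binding proteins together had 279.5 ± 5.97 TPM (SD, n = 3) in DMSO, 495.6 ± 21.0 TPM at 144 h and 833.9 ± 23.4 TPM in long-term cells. IGFBP2 made up 94.9% ± 0.53 of that sum in DMSO, 61.4% ± 1.24 at 144 h and 40.5% ± 0.59 in long-term cells. IGFBP3 made up 4.82%, 38.2% and 54.0% in the same groups, and IGFBP5 reached 5.21% ± 0.42 in long-term cells. IGFBP2 was thus the leading carrier by RNA in every group up to 144 h, and IGFBP3 in long-term cells, where the IGFBP3 to IGFBP2 ratio averaged 1.33 against 0.0508 in DMSO.

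**Figure D2:**
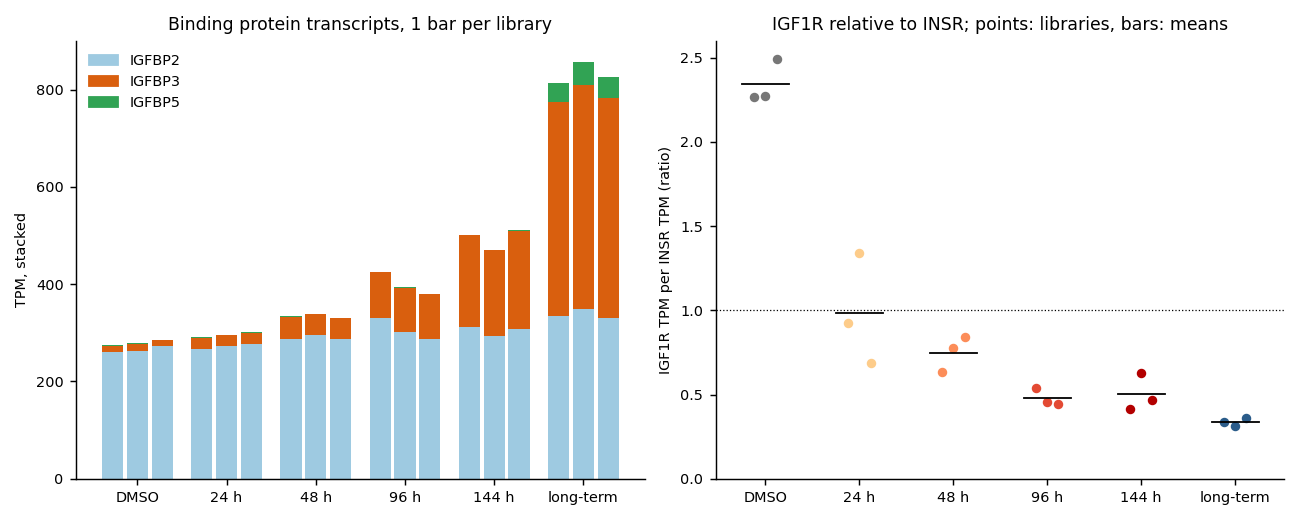
Left, stacked TPM of IGFBP2, IGFBP3 and IGFBP5 in each of the 18 libraries; right, the ratio of IGF1R to INSR TPM in each library by group. The IGFBP3 band grows from 4.82% of binding protein RNA in DMSO to 54.0% in long-term cells, and the receptor ratio is above 2 in all 3 DMSO libraries.

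IGF1R, the signalling receptor for both IGFs, fell within 24 h and fell again in long-term cells. Its gene lies at chr15:98648539-98964530 on the plus strand (ENSG00000140443). The DMSO libraries had 13.72, 14.87 and 11.54 TPM, the 24 h libraries 5.27, 6.47 and 4.34 TPM, and the 48 h libraries 3.78, 3.93 and 4.51 TPM. Values were 3.23, 2.71 and 2.24 TPM at 96 h, 3.15, 3.72 and 3.03 TPM at 144 h, and 1.39, 1.43 and 1.40 TPM in long-term cells. Every treated library lay below every DMSO library, and the long-term libraries lay below all others, while the groups from 24 to 144 h overlapped in part. Against DMSO the differences were -1.18 ± 0.13 (SE, n = 3 a group, adjusted p = 1.49e-05) at 24 h, -1.50 (5.25e-07) at 48 h, -1.95 (1.38e-08) at 96 h, -1.74 (2.95e-08) at 144 h and -2.57 (9.75e-11) in long-term cells. The DMSO mean was 9.51 times the long-term mean. None of the steps between 24 and 144 h was called, and long-term cells stood -0.83 from 144 h (adjusted p = 8.62e-05). All 5 differences from DMSO were called under every alternative tried.

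IGF2R, the clearance receptor for IGF2 and the mannose 6-phosphate receptor, moved in opposite directions at 144 h and in long-term cells. Its gene lies at chr6:159969099-160113507 on the plus strand (ENSG00000197081). The DMSO libraries had 49.07, 52.97 and 44.02 TPM, the 144 h libraries 84.71, 67.74 and 88.45 TPM, and the long-term libraries 23.37, 31.61 and 25.11 TPM. The 3 groups did not overlap, with 144 h above and long-term below DMSO. The difference from DMSO was 0.10 and 0.30 at 24 and 48 h, neither called (adjusted p = 0.0841 at 48 h), and 0.37 at 96 h (adjusted p = 0.0216), where the call held in 12 of 16 alternatives and was lost without DMSO replicate 3 (0.0932), 96 h replicate 1 (0.0774) or 96 h replicate 2 (0.0612). It was 0.71 at 144 h (adjusted p = 0.000115) and -0.85 in long-term cells (adjusted p = 1.11e-05), and both were called under every alternative. The long-term difference was -0.52 (adjusted p = 0.000267) once the mitochondrial share entered as a covariate. Long-term against 144 h gave -1.56 ± 0.12 (SE, n = 3 a group, adjusted p = 1.94e-08). AL353625.1, which overlaps IGF2R on the same strand, had 0.26 to 1.3 TPM. AIRN, annotated antisense to IGF2R, had at most 0.03 TPM; whether the counting used strand is not stated in the sources used here.

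INSR, the insulin receptor (chr19:7112255-7294034, minus strand, ENSG00000171105), changed little. It had 6.05, 6.54 and 4.63 TPM in DMSO, 7.56, 5.92 and 6.45 TPM at 144 h and 4.15, 4.57 and 3.89 TPM in long-term cells. The 144 h and DMSO libraries overlapped, and all long-term libraries lay just below the lowest DMSO library. The long-term difference was -0.36 from DMSO (adjusted p = 0.0214) and -0.55 from 144 h (adjusted p = 0.00182). With the mitochondrial share as a covariate neither was called (-0.15, adjusted p = 0.435, and -0.35, adjusted p = 0.0722). The difference from 144 h was -0.35 under median-of-ratios and -0.32 under quantile scaling, both called, and the difference from DMSO was called in 9 of 16 alternatives. It was lost when rescaled without mitochondrial genes (-0.26, adjusted p = 0.0637), without DMSO replicate 1 (0.0731) or 2 (0.106) and without long-term replicate 1 (0.0528) or 3 (0.0772). No comparison up to 144 h called INSR. The ratio of IGF1R to INSR TPM averaged 2.35 in DMSO, with libraries from 2.27 to 2.49, then 0.984 at 24 h, 0.505 at 144 h and 0.336 in long-term cells, with long-term libraries from 0.313 to 0.360. Each DMSO library had a higher ratio than every treated library.

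IRS1, the substrate that docks PI3K to IGF1R and INSR, fell by 24 h. Its gene lies at chr2:226731317-226799759 on the minus strand (ENSG00000169047). The DMSO libraries had 5.50, 5.15 and 4.89 TPM, the 24 h libraries 2.29, 2.01 and 2.46 TPM, and the long-term libraries 1.17, 1.79 and 1.24 TPM. All treated libraries lay below the lowest DMSO library, and the highest treated value was 3.80 TPM, at 48 h. The differences from DMSO were -0.93 (adjusted p = 0.00087) at 24 h, -0.56 (0.0193) at 48 h, -0.60 (0.00748) at 96 h, -0.73 (0.00117) at 144 h and -1.37 (1.53e-06) in long-term cells. The 48 h call was lost without DMSO replicate 1 (adjusted p = 0.0695), without DMSO replicate 2 (0.0511) or without 48 h replicate 2 (0.109). Long-term cells stood -0.64 from 144 h (adjusted p = 0.00296), which was not called with the mitochondrial share as a covariate (0.101).

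IRS2, the other main substrate (chr13:109752698-109786568, minus strand, ENSG00000185950), was near the filter. It had 1.05, 1.33 and 1.13 TPM in DMSO and between 0.61 and 1.00 TPM in all treated libraries, so it passed the filter through the DMSO libraries and 1 library at 96 h. DMSO lay above every treated library. The difference was -0.29 at 144 h (adjusted p = 0.0501) and -0.32 in long-term cells (adjusted p = 0.0261), and the long-term call held in 11 of 15 alternatives. It was lost without DMSO replicate 2 (adjusted p = 0.104) or long-term replicate 1 (0.0835), and with the mitochondrial share as a covariate (0.374).

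**Figure D3:**
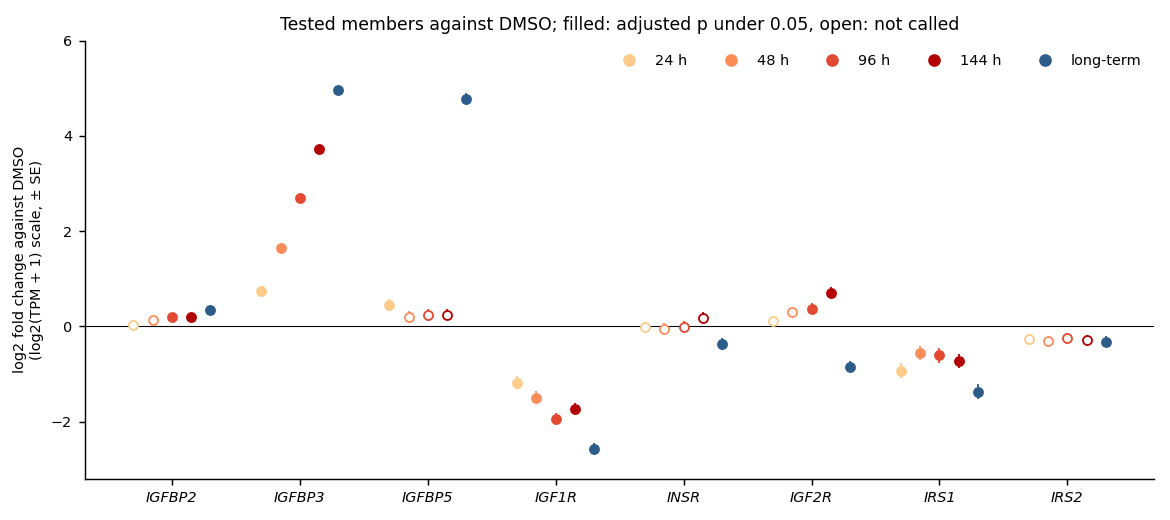
Log2 fold change against DMSO, on the log2(TPM + 1) scale, of the 8 tested members at each treatment time, with bars for the standard error and filled points for adjusted p below 0.05. IGFBP3 rises in each group to 4.97, IGFBP5 stands apart in long-term cells at 4.77, IGF1R falls to -2.57, and IGF2R crosses from 0.71 at 144 h to -0.85.

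Counted together, 4 of the 8 tested members were called at 24 h against DMSO, where 8.17% of all tested genes were called. They were 2 higher members, against 4.59% of all genes, and 2 lower members, against 3.58%. At 48 h 3 members were called against 17.5% of all genes, with 1 higher (9.38%) and 2 lower (8.08%). At 96 h 5 were called against 29.2%, with 3 higher (16.5%) and 2 lower (12.7%), and at 144 h 5 against 42.9%, with 3 higher (26.6%) and 2 lower (16.4%). All 8 were called in long-term cells, where 52.0% of all genes were, with 3 higher (18.1%) and 5 lower (33.9%). The 5 lower members include IRS2, which passed the filter mainly through the DMSO libraries, where it was highest. The higher members at 24 h and in long-term cells include IGFBP5, which passed the filter mainly through the libraries of those groups. Since so many genes were called in the later groups, the counts there describe the members and do not set them apart.

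Between neighbouring times IGFBP3 alone was called, and it was higher at each step. From 24 to 48 h 1.11% of all genes were called, 0.526% higher and 0.581% lower. From 48 to 96 h the shares were 1.28%, 0.934% and 0.346%, and from 96 to 144 h they were 3.38%, 2.20% and 1.18%. Between 144 h and long-term 7 of 8 members were called, against 46.1% of all genes, with 3 higher (9.23%) and 4 lower (36.8%). IGFBP2, IGFBP3 and IGFBP5 were the higher members in that comparison and IGF1R, IGF2R, INSR and IRS1 the lower ones. The filter limit of IGFBP5 holds here too. IRS2 was the member not called.

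The libraries of a member did not overlap with DMSO for 5 of 8 members at 24 h, where 27.3% of all genes did not overlap, and for 7 of 8 at 48 h (39.8%), 96 h (41.1%) and 144 h (50.1%). All 8 did not overlap in long-term cells, where 57.4% of genes did not. IRS2, which passed the filter mainly through its DMSO libraries, is in each of these counts against DMSO. So is IGFBP5, which passed it mainly through its 24 h and long-term libraries. For the steps the counts were 4 of 8 from 24 to 48 h (21.7% of all genes), 2 from 48 to 96 h (18.8%), 2 from 96 to 144 h (17.7%) and 7 from 144 h to long-term (47.8%). The median log2 fold change of the 8 members in long-term cells against DMSO was -0.34, against -0.12 for all tested genes. Median-of-ratios scaling moved that median of all genes to -0.02, and for long-term against 144 h it moved it from -0.19 to 0.01. The share of all long-term calls against DMSO that were higher was 34.8%, and 47.6% under that scaling, while long-term against 144 h went from 20.0% to 52.0%.

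The ligands themselves were scarce. IGF2 had 0.613 TPM in DMSO and 1.42 TPM at 144 h (log2 fold change 0.57, adjusted p = 0.00266), and 0.413 TPM in long-term cells (-0.77 from 144 h, adjusted p = 0.000245). The DMSO and long-term means lay under the 1 TPM of the filter, so IGF2 was tested with the help of groups where it was higher. Its calls carry that limit, and at such levels a value can rest on a few reads. IGF1 averaged between 0.197 and 0.433 TPM over the 6 groups, under the filter, and INS was listed at 0.

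Among 14 genes for carriers, clearance and proteases of the binding proteins, 7 passed the filter. Against DMSO 5 were higher and 1 lower at 144 h, where 26.6% and 16.4% of all tested genes were, and 3 were higher and 1 lower in long-term cells, against 18.1% and 33.9% of all genes. The median of the list was 0.52 at 144 h, against 0.07 for all genes. HTRA1, a serine protease that cleaves binding proteins, had 23.1 TPM in DMSO and rose at every time point to 44.4 TPM at 144 h (0.92, adjusted p = 1.61e-08), and had 44.4 TPM in long-term cells too (0.91, adjusted p = 7.43e-09). LRP1, an endocytic receptor that binds IGFBP3, rose from 6.42 ± 0.91 to 14.95 ± 1.94 TPM (SD, n = 3) at 144 h (1.10, adjusted p = 1.19e-05) and had 6.19 TPM in long-term cells. TMEM219, a cell-surface receptor for IGFBP3, rose from 109.3 to 169.4 TPM at 144 h (0.63, adjusted p = 1.51e-07) and had 119.7 TPM in long-term cells (0.13, adjusted p = 0.056). LRP1 and TMEM219 both fell between 144 h and long-term, by 1.16 and 0.50 on the log2 scale, and under median-of-ratios scaling the TMEM219 difference was -0.26.

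Receptor adaptors and inhibitors were mixed. Of 12 tested adaptors, 7 were higher and 1 lower at 144 h against DMSO, 3 were higher and 2 lower in long-term cells, and 0 were higher and 6 lower between 144 h and long-term. The shares of all genes were 26.6% and 16.4%, 18.1% and 33.9%, and 9.23% and 36.8% in these comparisons. GRB2, which links receptors to RAS, rose by 0.48 at 144 h (adjusted p = 0.000109). DOK4, an IRS-related docking protein, rose from 3.28 ± 0.22 to 8.25 ± 0.30 TPM at 144 h (1.11, adjusted p = 4.22e-08). The adaptor differences between 144 h and long-term depended on the scaling. Median-of-ratios scaling moved GRB2 from -0.62 to -0.38 and DOK4 from -0.61 to -0.41, both still called. NCK2 moved from -0.27 to -0.04 and was no longer called (adjusted p = 0.682). Of 13 tested inhibitors of receptor signalling, 5 were higher and 2 lower at 144 h (26.6% and 16.4% of all genes) and 3 were higher and 5 lower in long-term cells (18.1% and 33.9%), counts near those of all genes. GRB10, an adaptor that binds IGF1R and INSR and restrains them, had 55.4 ± 6.14 TPM in DMSO, 104 TPM at 24 h, 146 TPM at 48 h, 226 TPM at 96 h and 295 ± 14.4 TPM at 144 h. In long-term cells it had 49.7 ± 5.21 TPM, inside the spread around DMSO (-0.15, adjusted p = 0.133). The 144 h difference of GRB10 from DMSO was 2.40 (adjusted p = 1.46e-12), and long-term against 144 h gave -2.55 (adjusted p = 5.13e-13). SOCS2, a suppressor of growth hormone and IGF signalling, fell from 21.7 TPM in DMSO to 3.38 TPM in long-term cells (-2.37, adjusted p = 2.29e-11), and was already down by 1.24 at 24 h (adjusted p = 9.88e-07). ENPP1, a membrane protein that inhibits INSR, fell from 6.32 to 1.97 TPM in long-term cells (-1.30, adjusted p = 3.93e-07).

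In the PI3K, AKT and mTOR list, 30 of 31 genes were tested. At 24 h 1 was higher and 2 lower, against 4.59% and 3.58% of all genes. At 144 h 10 were higher and 5 lower, near the 26.6% and 16.4% of all genes, and in long-term cells 6 were higher and 15 lower, against 18.1% and 33.9%. The long-term median was -0.22, against -0.12 for all genes. INPP4B, a phosphatase that removes a PI3K product, fell from 10.2 TPM in DMSO to 0.837 TPM at 144 h (-2.62, adjusted p = 2.04e-07) and had 1.04 TPM in long-term cells. MTOR, the kinase of both mTOR complexes, fell from 37.5 ± 2.86 to 20.9 ± 1.43 TPM in long-term cells (-0.82, adjusted p = 2.05e-07), and EIF4EBP1, a translation repressor that mTOR phosphorylates, fell from 448.7 to 199.1 TPM. PIK3R1, a regulatory subunit of PI3K, rose from 34.7 to 94.3 TPM in long-term cells (1.42, adjusted p = 5.88e-09), and PIK3CD, a catalytic subunit, rose from 16.7 to 38.7 TPM at 144 h. Of 20 RAS and MAP kinase genes, all tested, 5 were higher and 4 lower at 144 h, near the 26.6% and 16.4% of all genes, and 6 were higher and 9 lower in long-term cells, against 18.1% and 33.9%. DUSP4, a MAP kinase phosphatase, fell from 30.2 to 0.92 TPM in long-term cells (-4.02, adjusted p = 2.68e-14), and RPS6KA3, a kinase below ERK, fell from 22.6 to 2.80 TPM. SPRY4 went the other way, with 2.27 at 144 h (adjusted p = 1.56e-09) and 1.56 in long-term cells (adjusted p = 6.96e-08). MAPK3 was also higher at 144 h (0.81, adjusted p = 5.82e-08). SPRY4 did not pass the filter of 5 TPM, and its 96 h difference from DMSO was between 1.073 and 3.015 over the alternatives. The size of its rise thus depended on the settings, and it was tested with the help of groups where it was higher.

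FOXO factors are held out of the nucleus when AKT is active, and their targets were followed as a list of 22 genes that includes INSR and IRS2, of which 21 were tested. At 24 h 10 were higher and 0 lower by limma, against 4.59% and 3.58% of all genes. At 144 h 12 were higher and 1 lower, against 26.6% and 16.4%, and in long-term cells 10 were higher and 7 lower, against 18.1% and 33.9%, where the lower share was near that of all genes. The median was 0.18 at 24 h and 0.49 at 144 h, against 0.02 and 0.07 for all genes, and -0.08 in long-term cells. SESN1, a stress-induced inhibitor of mTOR complex 1, rose from 16.2 TPM in DMSO to 55.4 TPM in long-term cells (1.71, adjusted p = 3.83e-11). CITED2, a transcriptional cofactor, rose from 62.8 ± 6.65 to 325.7 ± 52.3 TPM (2.35, adjusted p = 3.16e-10). CCNG2, a cyclin linked to cell cycle arrest, rose from 23.2 to 58.6 TPM at 144 h (1.30, adjusted p = 1.52e-07) and had 33.4 TPM in long-term cells (0.50, adjusted p = 0.0015, and 0.82 with the mitochondrial share as a covariate). Against DMSO, KLF15 went the other way at 48 h (-0.46, adjusted p = 0.000293). TXNIP was higher than DMSO at 144 h (0.93, adjusted p = 2.44e-07). It was lower than DMSO in long-term cells (-0.31, adjusted p = 0.0067), a call held in 15 of 16 alternatives. Long-term against 144 h is a separate comparison. In it 3 genes of the list were higher and 10 lower, against 9.23% and 36.8% of all genes. TXNIP differed there by -1.24 (adjusted p = 8.95e-09) and FBXO32 by -1.06 (adjusted p = 7.45e-06). CCNG2, higher than DMSO in both groups, differed by -0.80. The median of all genes in that comparison was -0.19, and 0.01 under median-of-ratios scaling. As background, many genes of this list also answer to other regulators.

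**Figure D4:**
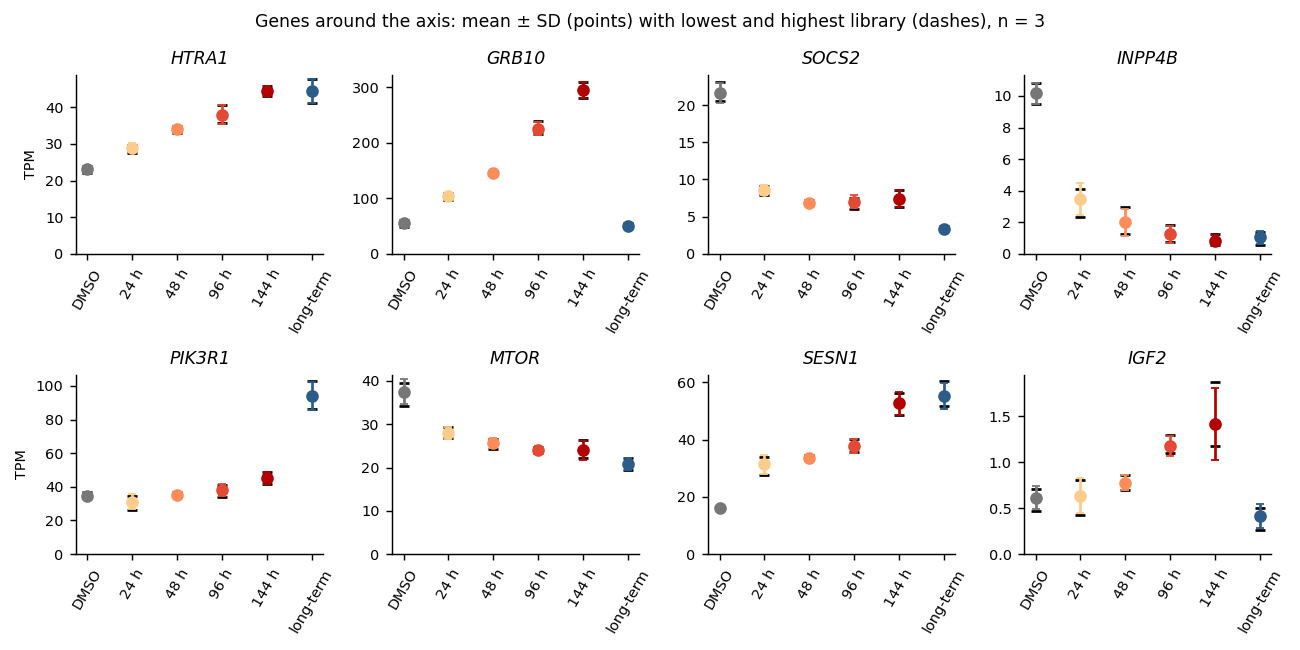
Mean TPM by group, with bars for the SD of 3 libraries and marks for the lowest and highest library, of HTRA1, GRB10, SOCS2, INPP4B, PIK3R1, MTOR, SESN1 and IGF2. GRB10 climbs to 295 TPM at 144 h and is at 49.7 TPM in long-term cells, SOCS2 and INPP4B fall from 24 h on, and PIK3R1 is highest in long-term cells.

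Genes whose log2(TPM + 1) across the 18 libraries was most like that of a member are given as a description. For IGFBP3 these were ID2 (Pearson r = 0.997), SMARCD3 (0.993), AIDA (0.991), CAMK2N1 (0.990) and ALDOC (0.989). For IGFBP5 they were LRRTM4 (0.996), HTR7 (0.995), ROBO2 (0.995), SMOC1 (0.995) and ADCYAP1 (0.995), all near 0 until 144 h, so that the value rests on the contrast of the 3 long-term libraries with the rest. For IGF1R they were CCDC57 (0.978), SLC45A3 (0.978), TMEM164 (0.974), PEX10 (0.974) and UAP1 (0.973). The 18 libraries are shared by all of these values.

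Marker lists of other cell types also differed between groups. The summed level of the neuroendocrine list was 14.45 to 15.66 TPM in DMSO, 66.45 to 93.13 TPM at 144 h and 99.45 to 121.5 TPM in long-term cells. Most of it was ENO2, which averaged 13.8 TPM in DMSO and 105 TPM in long-term cells, while CHGA was listed at 0 in DMSO; ENO2 and SYP alone of its 9 genes passed the filter. The fibroblast list, of which COL1A1 alone of 9 genes reached 1 TPM, had a sum of 14.39 to 16.09 TPM in DMSO, 22.69 to 39.29 TPM at 144 h and 7.28 to 9.2 TPM in long-term cells. COL1A1 was higher than DMSO at 144 h (0.94, adjusted p = 0.00095) and lower in long-term cells (-0.92, adjusted p = 0.000837), as IGF2R was. The luminal marker sum was 2921 to 3135 TPM in DMSO, 1757 to 1861 TPM at 24 h, 1568 to 1762 TPM at 144 h and 1532 to 1759 TPM in long-term cells. KLK3, whose fall is given above, was a large part of the DMSO sum. Of the 12 luminal genes 5 were higher and 6 lower at 144 h, against 26.6% and 16.4% of all genes. In long-term cells 1 was higher and 8 lower, against 18.1% and 33.9%. The part of these marker differences in the results for the members was not tested.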

How the data were processed

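RNA was measured in 18 libraries of the 16D line, in 6 groups of 3 taken from the sample titles. Per the labels' protocols, RNA was poly(A)-selected and made into strand-specific libraries sequenced from a single end with a read length of 50 bp. Tools listed in the submitters' processing notes are Partek, RSEM and STAR, and GRCh38 and hg38 are the builds listed there; no role, order or version is attached. The authors deposited gene-level TPM, with columns of means that equal the mean of 3 libraries; 2 fold columns were not used. Depth is not given in the sources used here. TPM is relative, so a rise of abundant genes lowers the others, and reads shared between near-identical genes may be split.

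Values were transformed to log2(TPM + 1), and 16169 of 60623 genes with at least 1 TPM in at least 3 libraries were kept. They were fitted with limma 3.58.1 in R 4.3.3 as 1 model of 6 group means, with a variance trend. In each of 9 comparisons p-values were two-sided and adjusted over all tested genes by Benjamini and Hochberg, with calls at adjusted p below 0.05. The fit was tested on simulated data. Positions come from GENCODE release 29, to which 58516 identifiers matched, and promoters from RefSeq. The deposited table types IGF1R, IGF2R and IRS1 as lncRNA, whereas GENCODE lists them as protein coding.

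All members are reported. From each pathway list the text names genes that were, in at least 1 comparison, among the 4 called genes with the smallest adjusted p, and gives them in other groups too. KLK3 serves as a check of the treatment; 1 other gene of that check is not reported here. For IGFBP3, IGFBP5 and IGF1R, the members with the widest span, the 5 genes with the highest Pearson r are named, among genes with a mean of at least 5 TPM in a group. Members and lists were chosen with earlier results of these data known. Alternatives covered the pseudocount (0.1), filters (5 TPM, none), median-of-ratios and quantile scaling, rescaling without mitochondrial genes, fitting only the 6 libraries compared, no variance trend, a replicate block, the mitochondrial share as a covariate, and leaving out each library.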

Additional observations from a re-analysis of the deposited data

Results flagged for a closer look

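IGF2R was picked out because the 144 h and the long-term groups moved in opposite directions from DMSO and the difference between them was itself called. The p-value and the separation of libraries given here rest on the same values as that choice and are no further test. IGF2R averaged above DMSO at 144 h and below it in long-term cells, and the difference between long-term and 144 h was -1.56 on the log2(TPM + 1) scale (limma adjusted p = 1.94e-08, n = 3 a group). Every long-term library was lower than every 144 h library. With 3 libraries a group, no group was large enough for the test for a single distant library.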

How the results depend on the processing

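Of 35 called values of the members, 25 were called under every alternative, and among 581 alternatives of values not called 30 were newly called; 0 member values reversed. The members called at 48 h numbered 3, and 5 with median-of-ratios scaling, 6 with quantile scaling, 6 without mitochondrial genes, 5 with only the libraries compared and 5 with the mitochondrial share as a covariate. From 96 to 144 h 1 member was called, and 2 with quantile scaling, without mitochondrial genes or with the covariate; leaving out single libraries gave 1 to 2. Over all genes, calls at 24 h were 1321, and 2026 with median-of-ratios scaling and 2292 with the covariate (869 to 1006 without single libraries). From 24 to 48 h they were 179, and 338 (median-of-ratios), 347 (quantile), 333 (without mitochondrial genes) and 421 (covariate), with 75 to 108 without single libraries. From 48 to 96 h they were 207, and 384, 436, 406 and 551 in the same order, 31 with only the libraries compared and 79 to 166 without single libraries. From 96 to 144 h they were 547, and 1063, 1039, 1145 and 1629, with 22 and 208 to 548. Fewer libraries or degrees of freedom enter the smaller fits; otherwise the cause was not tested. For long-term against 144 h HTRA1 became 0.23 with median-of-ratios scaling and 0.18 with quantile scaling, and CTSD 0.21 with the covariate, while PTPRF in long-term against DMSO became 0.32 with the covariate.

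Replicate numbers showed little sign of pairing: of 27 same-numbered pairs 2 correlated above 0.1 (range -0.159 to 0.144), and 4 of 18 libraries were most like their own number. Deviations from means of 3 libraries cannot settle whether same-numbered samples were handled together. With a replicate block 8 members were called in long-term cells and 1210 genes at 24 h. Depth is unknown, so the precision of genes near 1 TPM cannot be given.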
